A study of Mus musculus with 12 samples.

Results

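The comparison described here set ribosome-bound RNA of Slc17a6 cells against RNA of the whole tissue in the mouse hypothalamus. Its members were chosen by title: the 3 libraries named hypothalamus IP and the 3 named hypothalamus input, 6 of the 12 libraries of the study. All came from adult transgenic mice of the JX883 line, Slc17a6-EGFP/Rpl10a, in which the large-subunit ribosomal protein Rpl10a carries EGFP and is made in cells that use Slc17a6. In the IP group, the dissected hypothalamus was homogenised and tagged polysomes were captured with monoclonal antibodies against EGFP. In the input group, total RNA of the homogenate was sequenced without capture. Both groups carry the transgene, and the labels named no IP from untagged mice, so RNA that sticks to the beads cannot be told apart from RNA of tagged cells that is rare in them. The sex, the exact age and the number of animals behind a library are not given in the sources used here. The other 6 libraries are the IP and input of the midbrain of the same line and were used for the shared spread and for 1 regional comparison.

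Slc17a6 encodes VGLUT2, the transporter that loads glutamate into synaptic vesicles of most excitatory neurons of the hypothalamus, thalamus and brainstem. In the hypothalamus such neurons lie among GABAergic, peptidergic and histaminergic neurons, glia and the cells of the ventricle wall and vessels. Translating ribosome affinity purification recovers the messages that sit on tagged ribosomes, so a transcript can be low in the IP because other cells make it, or because it is in the nucleus or otherwise off the ribosome.

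The IP libraries held 52869089 to 55148109 counts over genes and the inputs 45931113 to 47927863. Of 32531 gene rows, 18128 passed the filter on low counts and were tested. The labels put the IP and input of 1 number on 1 lane, all IPs on 1 index and all inputs on another, so index and fraction cannot be told apart. Several libraries stood apart. The ribosomal RNA row Rn45s took 12.3% of counts in IP replicate 1 and 6.01% and 5.52% in the other IPs, against 3.31% to 3.67% in the inputs. Of 10254 genes at 5 or more CPM in both fractions, 359 were more than 2-fold above both other replicates in replicate 1 of the IP and of the input alike, against 3 genes for replicate 2 and 19 for replicate 3. CPM stands for counts scaled to a common library size by the trimmed mean of M values (TMM). Input replicate 2 held the pituitary hormone transcripts Prl at 994 CPM and Gh at 567 CPM, against 5.64 to 21.5 and 2.92 to 9.28 in the other inputs. Reads listed as ambiguous between genes made up 16.2%, 4.03% and 7.92% of input replicates 1 to 3 and 1.45% to 1.85% of the IPs. Tests paired the IP and input of 1 number, and nothing says that the 3 pairs came from separate animals, so each p-value reflects only how these samples vary, which may be technical.

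The tissue was checked with marker lists. Of 17 general neuron markers 15 rose in the IP and 1 fell, with a median log2 fold change of 0.59, where 18.4% of all genes tested passed as higher, 22.1% as lower, and the median gene lay at −0.12. Their summed level was 21997 to 27194 CPM in the IPs and 13830 to 17569 CPM in the inputs. Of 22 genes listed for subcortical glutamatergic neurons, Slc17a6 among them, 9 rose, 1 fell and 12 did not pass (median 0.57). All 15 astrocyte, all 15 oligodendrocyte and all 15 microglia markers fell, with medians of −4.96, −4.81 and −5.10. The astrocyte sum was 130 to 292 CPM in the IPs and 1065 to 2316 CPM in the inputs, and the oligodendrocyte sum 194 to 225 and 2689 to 3559 CPM. Of 15 endothelial and mural markers 12 fell, as did 12 of 13 ependymal and choroid plexus markers, 7 of 8 oligodendrocyte precursor markers and 15 of 18 GABAergic markers. Among the GABAergic markers 1 rose. The GABAergic sum stood at 283 to 433 CPM in the IPs and 1929 to 2532 CPM in the inputs. Both groups come from dissected hypothalamus, so these falls describe what was captured and not how many cells the tissue held. In bulk RNA, capture from fewer cells of a type and less captured RNA per cell cannot be told apart. The complement gene C1qa of microglia and the tight junction gene Cldn5 of endothelium had no count in any IP library. Without the block by replicate number 9 general neuron markers passed as higher in place of 15.

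Slc17a6 (mm10, chromosome 7, 51622006 to 51671119), under whose control the tag is expressed, stood at 3489, 1122 and 1743 CPM in IP replicates 1 to 3 and at 518, 218 and 311 CPM in the inputs. Every IP lay above every input, which held for 19.7% of the genes tested, and replicate 1 was highest in both fractions. Compared within pairs, the log2 fold change was 2.54 (SE 0.11, adjusted p = 5.13e-08; quasi-likelihood test of edgeR, Benjamini-Hochberg adjusted, as for each adjusted p-value that names no other tool). Rpl10a (chromosome 17, 28328471 to 28331033), the gene of the tagged protein, was at 3.59, 5.64 and 6.33 CPM in the IPs and 8.15, 8.45 and 8.03 CPM in the inputs. All 3 IPs lay below all inputs, which held for 27.3% of the genes tested, yet the difference did not pass (−0.70, SE 0.29, adjusted p = 0.0705). It passed with DESeq2 (−0.73, adjusted p = 0.0391), with library size only (−0.86, adjusted p = 0.0359) and with the number as a block over both regions (−0.69, adjusted p = 0.0476). Whether reads of the fusion transcript count to Rpl10a was not tested. The RefSeq promoter of Slc17a6, shown because this gene directs the tag, spans chr7:51621580-51621879 on the plus strand of GRCm38.p6. It runs from 250 bases before to 50 bases after the start annotated in RefSeq. That start differs from the GENCODE coordinates given above, and the stretch ends before them.
Slc17a6: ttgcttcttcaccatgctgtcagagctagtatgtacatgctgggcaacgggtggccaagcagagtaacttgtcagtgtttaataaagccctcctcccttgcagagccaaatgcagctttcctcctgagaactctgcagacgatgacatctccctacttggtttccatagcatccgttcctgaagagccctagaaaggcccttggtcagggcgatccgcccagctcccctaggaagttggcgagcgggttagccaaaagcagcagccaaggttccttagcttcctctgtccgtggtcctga

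Across the transcriptome the loss side was deeper than the gain side. In the IP 3334 genes were higher and 4007 lower. Of the higher genes 994 exceeded 2-fold and 66 exceeded 4-fold, while of the lower genes 3039 exceeded 2-fold, 2177 exceeded 4-fold and 1395 exceeded 16-fold. For 408 of them all 3 IPs were at 0 counts. The higher genes held 57.1% to 61.1% of the counts of the IPs and 34.2% to 37.9% of those of the inputs. The lower genes held 7.74% to 8.14% and 24.3% to 29.6%. Without the replicate block 2576 genes were higher and 3547 lower, of which 2526 and 3295 were called in the same direction with it. With scaling by library size alone, the share of higher genes among the calls moved from 45.4% to 33.2%, with 2389 higher and 4798 lower, and the median from −0.12 to −0.28.

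**Figure D1:**
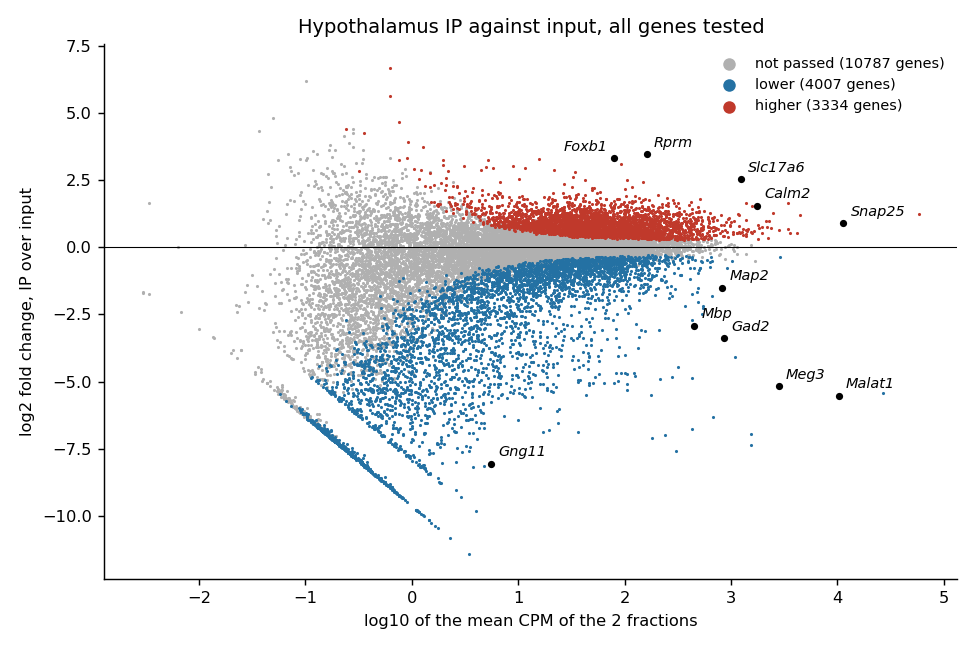
Log2 fold change of IP over input against the log10 of the mean CPM of the 2 fractions, for the genes tested, with the 3334 higher genes in red, the 4007 lower genes in blue and the rest in grey. The lower genes reach further from 0 than the higher ones, and Slc17a6 (2.54), Rprm (3.45) and Foxb1 (3.32) lie near the upper edge while Malat1 (−5.52) and Meg3 (−5.17) lie far below.

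The smallest p-values among the higher genes belonged to a mixed set of neuronal genes. Rprm (chromosome 2, 54084093 to 54085552), which encodes reprimo, a p53-induced cell-cycle inhibitor, was at 325, 350 and 215 CPM in the IPs and 23.7, 30.8 and 25.4 CPM in the inputs (log2 fold change 3.45, SE 0.16, adjusted p = 5.93e-08). Foxb1 (chromosome 9, 69757710 to 69760940), a forkhead transcription factor active in mammillary neurons, was at 166, 172 and 100.45 CPM against 11.7, 18.5 and 13.2 CPM (3.32, SE 0.19, adjusted p = 2.74e-07). In both genes each IP lay far above each input, and replicate 3 had the lowest IP level. Cpne9, a calcium-binding copine, was at 186, 194 and 153 CPM against 31.7, 27.6 and 35.2 CPM (2.49, SE 0.15, adjusted p = 4.3e-07). Nrn1, a membrane-anchored neurite growth protein, stood at 413.75, 301.23 and 455.91 CPM against 100.41, 96.034 and 128.17 CPM (1.84, SE 0.11). In both of these genes every IP value lay above every input value. The small membrane protein gene Ctxn3 (3.11), the calmodulin gene Calm2 (1.55) and Slc17a6 were also among the 8 genes with the smallest p.

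The 12 largest gains in CPM included genes of synaptic release and calcium sensing. Snap25 (chromosome 2, 136713453 to 136782428), a SNARE of vesicle fusion, was at 10828, 16425 and 17233 CPM in the IPs and 6048, 8276 and 9560 CPM in the inputs (log2 fold change 0.89, SE 0.09, adjusted p = 2.12e-05). Vsnl1, a neuronal calcium sensor, stood at 5819, 6840 and 5894 CPM against 2134, 2934 and 3151 CPM (1.19), and the vesicle SNARE gene Vamp2 at 3704, 3294 and 3524 CPM against 1232, 1415 and 1770 CPM (1.27). All 3 had IP levels above every input level. Calm2 (chromosome 17, 87433412 to 87446935) was at 2462, 2655 and 2686 CPM against 761, 960 and 954 CPM (1.55, SE 0.09, adjusted p = 4.27e-07). Calmodulin is encoded by more than 1 gene, so the share of reads counted for Calm2 is uncertain where coding sequence is alike. Gnas (0.68), the stimulatory G protein subunit gene, and Zwint (0.97) also gained, as did Rtn1 (0.98), a reticulon of the endoplasmic reticulum, whose IP replicate 1 stood at 5164 CPM against 1571 and 1985 CPM and whose call was lost without the replicate block (adjusted p = 0.104).

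3 further large gains were highest in IP replicate 1. Rn45s was at 137100, 59694 and 54639 CPM in the IPs and 32012, 30404 and 34387 CPM in the inputs (log2 fold change 1.24, adjusted p = 0.0175). Mir6236 (chromosome 9, 110281287 to 110281409), annotated as a microRNA, was at 8597, 3967 and 3479 CPM against 1806, 1271 and 1687 CPM (1.65, adjusted p = 0.00178). Lars2 (chromosome 9, 123366927 to 123462666), the mitochondrial leucyl-tRNA synthetase gene, was at 3606, 1788 and 1685 CPM against 766, 748 and 789 CPM (1.53, adjusted p = 0.000961). IP replicate 1 was 2.40, 2.31 and 2.08 times the mean of the other IPs in these 3 rows, while input replicate 1 was 0.988, 1.22 and 0.996 times that of the other inputs. Without replicate 1 the values were 0.82 (adjusted p = 0.16) for Rn45s and 1.35 (adjusted p = 0.0554) for Mir6236, and neither passed. With the DESeq2 test both missed the threshold (1.21, adjusted p = 0.193 for Rn45s and 1.61, adjusted p = 0.172 for Mir6236), and Rn45s also did with limma-voom. With no filter on low counts Rn45s (adjusted p = 0.145), Mir6236 (adjusted p = 0.0642) and Lars2 (adjusted p = 0.0537) did not pass. Whether reads of other sequence are counted in these rows was not tested.

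With rows named only by a sequence accession set aside, the largest losses in CPM were nuclear noncoding RNAs, followed by glial genes and a few neuronal ones. Malat1 (chromosome 19, 5795690 to 5802672), a long noncoding RNA of nuclear speckles, fell from 12924, 22481 and 24743 CPM in the inputs to 587, 363 and 357 CPM in the IPs (log2 fold change −5.52, SE 0.30, adjusted p = 2.13e-07). Meg3 (chromosome 12, 109541001 to 109571726), an imprinted noncoding RNA that is kept in the nucleus, fell from 3185, 5814 and 7408 CPM to 153, 124 and 156 CPM (−5.17, SE 0.23). Both were lowest in input replicate 1, and no IP value came near an input value. The snoRNA host gene Snhg11 fell (−4.07), as did Mit1/Lb9 (−2.47), a row with no entry in the annotation used. The myelin gene Mbp (−2.92) stood at 642, 733 and 1025 CPM in the inputs and 113, 98.1 and 99.997 CPM in the IPs. Slc1a2, the astrocytic glutamate transporter, fell by 2.26 on the log2 scale, Ndrg2, another astrocyte gene, by 2.17 and Fth1, the ferritin heavy chain gene, went from 831, 1064 and 1184 CPM to 190.4, 359 and 365 CPM. Gad2 (chromosome 2, 22622205 to 22693874), a GABA-synthesising enzyme, was at 1659, 1415 and 1572 CPM in the inputs and 93.4, 122.87 and 289.54 CPM in the IPs (−3.38, SE 0.33).

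2 microtubule-associated protein genes of neurons were also among the 12 largest losses, once 5 rows named only by a sequence accession, all with larger losses than Map1b, were set aside. Map2 (chromosome 1, 66175273 to 66442583), whose transcript is carried into dendrites, fell from 1282, 1221 and 1165 CPM to 382, 477 and 437 CPM (−1.51, SE 0.12, adjusted p = 5.12e-06). Map1b stood at 3058, 3237 and 3369 CPM in the inputs and 2026, 2626 and 2884 CPM in the IPs (−0.37, SE 0.11, adjusted p = 0.0193), and it did not pass without the replicate block (adjusted p = 0.131), without replicate 1 (−0.26, adjusted p = 0.127) or without replicate 2 (−0.41, adjusted p = 0.0667). Map2 lay far below the input in every pair, and Map1b only narrowly. By p-value, with 8 such rows set aside, the lower genes were led by transcripts that included Sepp1 (−4.96), a selenium carrier, Qk (−4.46), a glial RNA-binding protein, Apod (−5.07), Fa2h (−5.01), Mobp (−4.85), Mal (−4.79) and the water channel gene Aqp4 (−4.96).

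**Figure D2:**
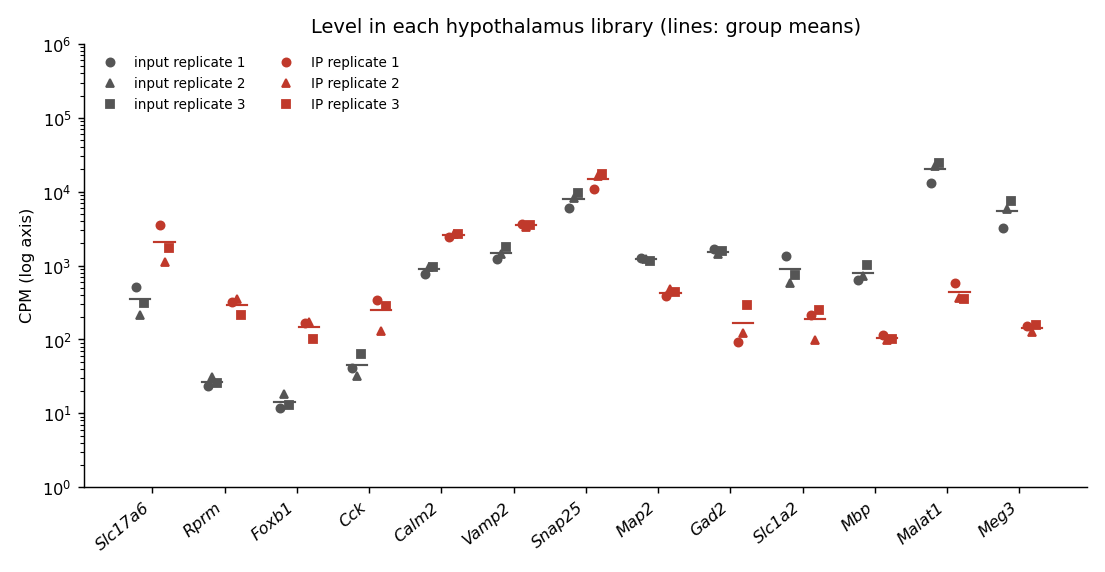
CPM on a log axis in each of the 6 libraries for 13 genes named in the text, with input in grey and IP in red, symbols by replicate and lines at group means. The 3 IPs of Slc17a6, Rprm, Foxb1, Cck, Calm2, Vamp2 and Snap25 all lie above the 3 inputs, and those of Map2, Gad2, Slc1a2, Mbp, Malat1 and Meg3 all lie below.

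Nuclear genes of oxidative phosphorylation, the mitochondrial machinery that makes ATP, rose together. Of 84 members tested 65 rose (77.4%) and 0 fell, with a median log2 fold change of 1.17. The median was 1.28, 1.19 and 1.07 in pairs 1 to 3. Beside this and every later list count stand the shares of all genes tested, 18.4% higher and 22.1% lower. The members that rose encode short proteins, with a median of 129 residues. Of all coding genes with up to 150 residues and a mean of at least 5 CPM, 72.5% rose (median 0.91), a share close to that of this list. Their summed level was 13592 to 17655 CPM in the IPs and 8539 to 10051 CPM in the inputs, without overlap. By complex, 32 of 37 subunits of NADH dehydrogenase (complex 1) rose (median 1.28), as did all 4 of succinate dehydrogenase (0.80), 6 of 9 of complex 3 (1.44), 11 of 17 of cytochrome c oxidase (1.29) and 12 of 17 of ATP synthase (0.92). Ndufa1 (chromosome X, 37187588 to 37191163), a small membrane subunit of complex 1, was at 100.2, 102 and 109 CPM in the IPs and 21.6, 30.8 and 38.5 CPM in the inputs (1.81, SE 0.16, adjusted p = 8.41e-06). Cox6a2 (chromosome 7, 128205435 to 128206387), the isoform of cytochrome c oxidase subunit 6a known from striated muscle, was at 23.2, 23.7 and 36.8 CPM against 1.31, 2.70 and 5.74 CPM (3.29, SE 0.38, adjusted p = 5.47e-05). Its common paralog Cox6a1 was at 350, 513 and 578 CPM against 157, 199.6 and 249.7 CPM (1.24, SE 0.12). Each of these 3 genes had every IP above every input. Cox7a2 (1.30) and Cox4i1 (0.99) rose, while the paralogs Cox7a1 (0.87, adjusted p = 0.206) and Cox4i2 (−0.68, adjusted p = 0.608) did not pass. With DESeq2 1 member of the list passed as lower. No row carried the symbol of a gene of the mitochondrial genome, so those subunits are not analysed here.

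Genes of respiratory subunits often carry a site for nuclear respiratory factor 1 near their start. The 6 letters TGCGCA, the core of its consensus, read the same on both strands and were searched in the 300-base RefSeq promoters of GRCm38.p6. They were present in 17 of the 66 promoters found for the 84 tested oxidative phosphorylation genes (25.8%), in 13 of 44 found for mitochondrial ribosomal proteins (29.5%), in 1594 of 12227 of all genes tested (13%) and in 2178 of all 27025 in the table (8.06%). Among promoters of genes that rose the share was 18.4% and among those of genes that fell 10.8%. Within the oxidative phosphorylation genes that rose it was 13 of 53 (24.5%), close to that of all tested members. A match is a stretch of letters and not a measured site. The promoters of the 2 subunit genes with the largest fold changes among those with a match are shown, with TGCGCA in capitals: Ndufa5 at chr6:24527477-24527776 and Ndufa6 at chr15:82354242-82354541, both on the minus strand.
Ndufa5: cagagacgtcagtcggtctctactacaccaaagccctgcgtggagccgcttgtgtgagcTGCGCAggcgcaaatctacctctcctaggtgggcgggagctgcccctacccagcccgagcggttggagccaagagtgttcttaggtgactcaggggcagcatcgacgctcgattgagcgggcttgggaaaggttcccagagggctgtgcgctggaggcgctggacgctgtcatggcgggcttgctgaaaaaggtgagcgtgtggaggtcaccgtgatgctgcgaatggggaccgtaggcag
Ndufa6: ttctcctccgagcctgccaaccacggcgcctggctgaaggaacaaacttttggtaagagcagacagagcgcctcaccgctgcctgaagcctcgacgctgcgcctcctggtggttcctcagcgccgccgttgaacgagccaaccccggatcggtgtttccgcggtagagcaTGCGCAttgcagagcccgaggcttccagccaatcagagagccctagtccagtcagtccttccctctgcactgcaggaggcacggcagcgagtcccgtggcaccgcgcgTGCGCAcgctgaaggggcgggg
Both are subunits of complex 1. Ndufa5 was at 188, 144 and 139 CPM in the IPs and 32.5, 64.7 and 65.4 CPM in the inputs (1.58, SE 0.27, adjusted p = 0.000731), and Ndufa6 at 86.8, 140.1 and 128 CPM against 24.6, 51.4 and 49.7 CPM (1.54, SE 0.14). Neither gene had overlapping groups.

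Other energy and organelle genes moved with smaller values. Of 50 mitochondrial ribosomal protein genes 42 rose and 0 fell (median 0.80), among them Mrpl20 (1.62) and Mrpl14 (1.54). Mrpl20 stood at 94.3, 88.9 and 88.9 CPM in the IPs against 27.9, 29.6 and 31.3 CPM in the inputs, with no overlap. Of 20 subunits of the vacuolar proton pump, which acidifies synaptic vesicles and lysosomes, 12 rose and 2 fell (median 0.54). Atp6v1f (1.30) and Atp6v0e2 (1.29) rose, while Atp6v0e (−1.796), the paralog of the latter, fell from 18.965, 29.1 and 21.97 CPM to 8.80, 5.09 and 6.43 CPM. Of 21 glycolysis genes 6 rose and 2 fell (median 0.23). Tpi1 (0.55) and Ldha (0.48) rose, and Aldoc (−1.55), the aldolase of astrocytes, fell. No glycolysis gene passed as higher without replicate 2 or with library size alone, and 3 did without replicate 1.

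Genes that make and turn over proteins were near the median or above it. Of 78 cytosolic ribosomal protein genes 11 rose and 4 fell. Their median of 0.10 turned to −0.07 with scaling by library size alone, and 2 members passed as higher without replicate 1. Rpl41 (1.36) and Rps27l (1.06) rose and Rps12 (−1.33) and Rps4x (−0.92) fell, and many genes of this family have near-identical copies that make their counts uncertain. Of 53 genes with symbols of translation initiation factors, which include kinase genes named Eif2ak, 16 rose and 3 fell (median 0.19). Eif1 (1.15), which guards start codon choice, and Eif5a (1.09) rose, and the stress kinase genes Eif2ak2 (−1.70) and Eif2ak4 (−0.63) fell. Eif2ak4 did not pass without the replicate block (adjusted p = 0.0547), without replicate 1 (0.215) or without replicate 3 (0.0705). Of 39 proteasome subunits 16 rose and 0 fell (median 0.34), with Psmd3 at 1.04 and Psmb10 at 0.98. Of 68 heat shock and DnaJ chaperone genes 20 rose and 9 fell. Dnajc12, a co-chaperone of aromatic amino acid hydroxylases, rose by 1.45 on the log2 scale, from 25.7, 26.5 and 22.8 CPM to 71.4, 76.9 and 57.6 CPM, and Dnajc1 fell by 2.38. 7 chaperone genes passed as higher without replicate 2.

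**Figure D3:**
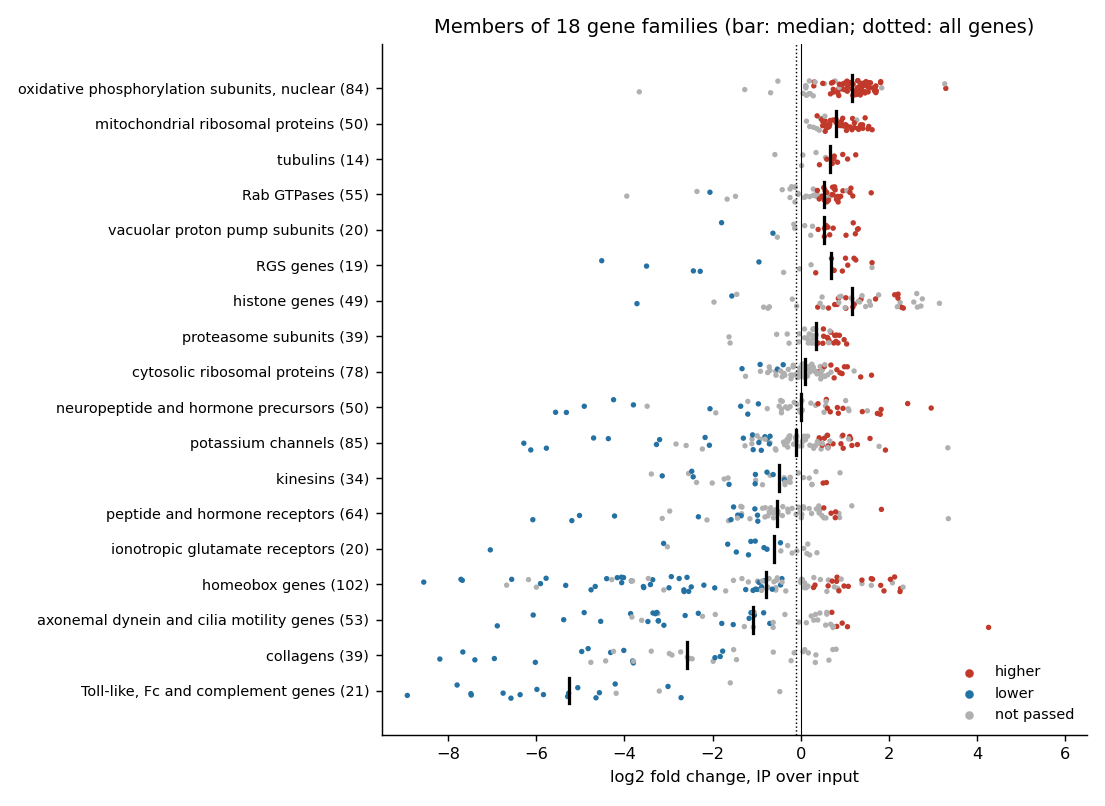
Log2 fold change of IP over input for each member of 18 gene families, with genes that passed as higher in red, as lower in blue and the rest in grey, a black bar at the family median and a dotted line at the median of all genes (−0.12). Oxidative phosphorylation subunits (median 1.17) and mitochondrial ribosomal proteins (0.80) lie to the right, and collagens (−2.57) and the Toll-like, Fc and complement genes (−5.26) to the left.

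Across coding genes the fold change ran with the length of the encoded protein. Of 930 genes whose longest annotated protein has up to 150 residues 49.8% rose and 11.2% fell (median 0.75). Of 1397 genes with more than 1200 residues 7.23% rose and 40.7% fell (median −0.50). The bins between lay in order, with medians of 0.37 (over 150 and up to 300 residues), 0.03 (up to 500), −0.14 (up to 800) and −0.26 (up to 1200). Each of the 3 pairs gave the same order: the shortest bin had medians of 0.80, 0.69 and 0.69 and the longest −0.52, −0.49 and −0.47. Among genes with a mean of at least 5 CPM the ends were 72.5% higher and 6.22% lower for up to 150 residues, and 9.39% and 42.2% for over 1200. The genes that rose encoded proteins of a median of 307 residues, those that fell 614 and those that did not pass 492. Spearman's rho between length and log2 fold change was −0.30 across 14651 genes, which are not independent replicates. Among coding genes with a mean of at least 5 CPM, the medians by length of the 3′ untranslated region were 0.28 for up to 250 bases, 0.30 for 251 to 500 and −0.20 for over 4000. The part of fragment length, capture or library preparation in this relation was not tested.

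**Figure D4:**
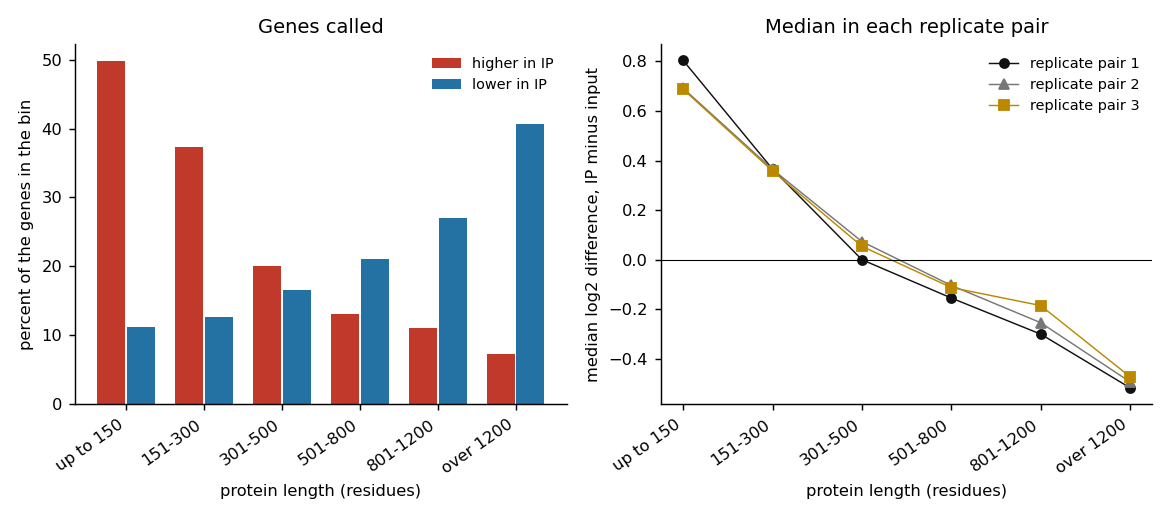
Coding genes in 6 bins of protein length: left, the percent of each bin that passed as higher (red) or lower (blue) in the IP, and right, the median log2 difference of IP minus input in each of the 3 replicate pairs. The share of higher genes declines from 49.8% to 7.23% that of lower genes climbs from 11.2% to 40.7%, and the median falls from each bin to the next in all 3 pairs.

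The same relation held inside several complexes, where small and large subunits went apart. Cytoplasmic dynein, the motor that moves cargo toward the cell body, has 2 heavy chains in this list, of 4313 and 4644 residues, and both fell. Dync1h1 was at 145, 157 and 133 CPM in the IPs and 399.8, 329 and 319 CPM in the inputs (−1.26, SE 0.12, adjusted p = 1.27e-05). Dync2h1, the heavy chain of ciliary transport, fell by 1.38 on the log2 scale. Of 8 light chains of 89 to 116 residues 4 rose, and Dynlrb1 was at 623, 722 and 712 CPM against 202, 322 and 325 CPM (1.31, SE 0.14, adjusted p = 2.57e-05). Dynll2 rose by 1.12 on the log2 scale, and its call was lost without the replicate block (adjusted p = 0.118). 1 light chain went the other way: Dynlrb2, a marker of ciliated ependymal cells, was at 0.383, 0.367 and 0.899 CPM against 4.53, 4.96 and 4.03 CPM (−3.15, SE 0.78, adjusted p = 0.00743).

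Voltage-gated channels differed in how they ran with length. Across 82 potassium channels Spearman's rho with protein length was −0.02, and the median was 477 residues for those that rose and 491 for those that fell. Of 10 pore-forming subunits of calcium channels, of 1852 to 2381 residues, 0 rose and 4 fell, among them Cacna1e (−1.14), an R-type channel, and Cacna1d (−0.86), an L-type channel. Of 4 auxiliary beta subunits 3 rose and 0 fell, with Cacnb3 at 199.6, 193 and 168 CPM in the IPs and 77.4, 74.3 and 77.3 CPM in the inputs (1.29, SE 0.16, adjusted p = 9.07e-05), and Cacnb2 at 0.93. Of 7 pore-forming sodium channel subunits 0 rose and 3 fell, with Scn7a, a glial sodium sensor of the ventricular organs, at −2.52 and Scn9a at −1.11. Of 4 sodium channel beta subunits 2 rose and 1 fell. Without the replicate block Cacna1d (adjusted p = 0.0924), Cacna1e (adjusted p = 0.199) and Scn2b (0.59, adjusted p = 0.0591) did not pass. Of 22 genes of intraflagellar transport and the BBSome 5 rose and 3 fell, and Spearman's rho with protein length was −0.84 across them. The small Ift20 (1.42) and Ift27 (0.82) rose, and Bbs9 (−1.38) and Ift81 (−0.53) fell. Within oxidative phosphorylation rho was −0.69, the genes that rose having a median of 129 residues and those that did not pass 298. In 46 of the 71 lists with 8 or more measured lengths rho was below 0.

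**Figure D5:**
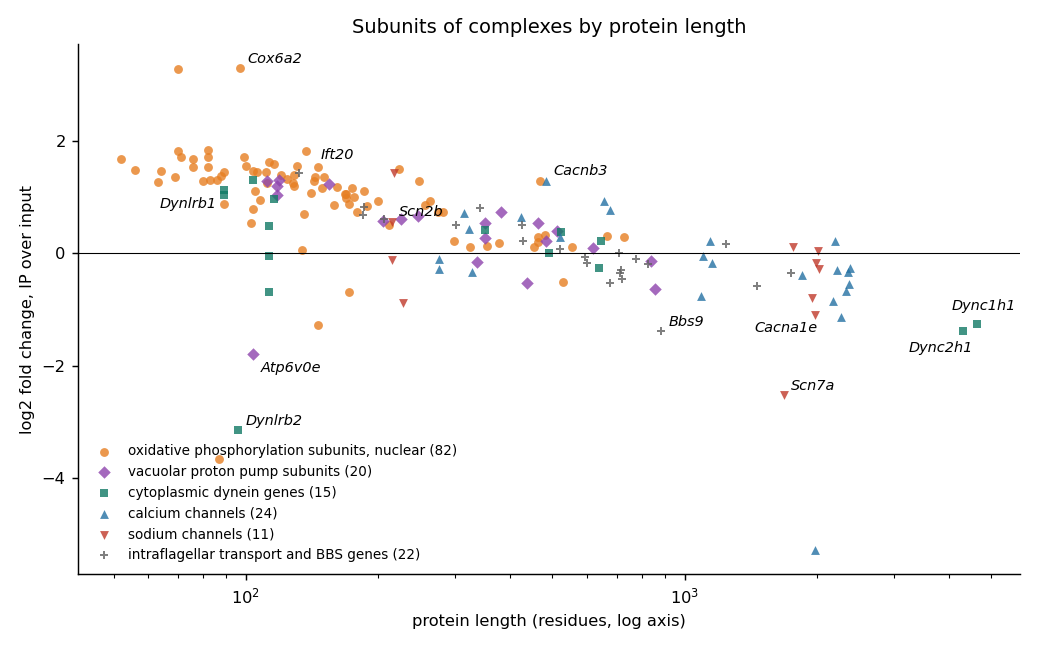
Log2 fold change of IP over input against protein length on a log axis, for members of 6 lists of protein complexes. Subunits of about 100 residues lie mostly above 0 and the heavy chains of dynein (Dync1h1 −1.26, Dync2h1 −1.38) and the pore subunits of channels mostly below, with Dynlrb2 (−3.15) and Atp6v0e (−1.796) as small subunits that fell.

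Among cytoskeletal genes, 9 of 14 tubulins rose and 0 fell (median 0.65). The gamma-tubulin gene Tubg2 rose by 1.25 on the log2 scale and Tubb2a by 1.06, from 147, 175 and 207 CPM to 351, 370 and 372 CPM. Tubb3 (0.59) rose, and Tubb2b (0.02, adjusted p = 0.967) did not pass. Of 34 kinesins, the motors of outward transport, 2 rose and 9 fell (median −0.50). Kif3c (0.58) and Kif21a (0.51), both neuronal, rose, while Kif1c (−3.14) and Kif6 (−2.47) fell. Of 53 genes of axonemal dynein and ciliary motility 5 rose and 23 fell (median −1.07), among them the dynein genes Dnali1 (−6.88) and Dnah6 (−4.54). Kif1c, Dnali1 and Dnah6 stood at or below 5.45 CPM in every IP library. The summed level of the axonemal and ciliary list did not fall: it was 1176.5 to 1433.6 CPM in the IPs and 1110 to 1204.7 CPM in the inputs. The sum of the ependymal markers was 7.80 to 15.4 CPM in the IPs and 61.3 to 67.4 CPM in the inputs. The part of ependymal cells in the falls of single ciliary genes was not tested.

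Genes of vesicle traffic came next. Of 55 Rab GTPases, which steer vesicles between compartments, 30 rose and 1 fell (median 0.53). Rab3a, the Rab of synaptic vesicles, was at 582, 641 and 586 CPM in the IPs and 240, 263 and 326 CPM in the inputs (1.14, SE 0.14, adjusted p = 6.56e-05), and Rab11b rose by 1.18 on the log2 scale. The exception was Rab31 (−2.06), which fell from 68.9, 78.7 and 81.4 CPM to 20.4, 16.3 and 18.3 CPM. Of 47 SNAREs and their partners 18 rose and 10 fell, with Vamp2 (1.27) and Stx8 (1.10) at the top and Stxbp3a (−3.35) and Snap23 (−2.83) at the bottom. With library size alone 18 of these passed as lower. Of 20 synaptotagmin genes 5 rose and 7 fell. Syt5 (1.16) and Syt9 (0.91), calcium sensors of secretory vesicles, rose, and the synaptotagmin-like gene Sytl4 (−2.80) fell.

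Of 19 RGS genes, which speed the turn-off of G proteins, 10 rose and 5 fell (median 0.70). Rgs6 (1.62) and Rgs7 (1.25) rose, the latter from 122, 166 and 180 CPM to 303, 418 and 385 CPM, and the pericyte gene Rgs5 (−4.51) and Rgs22 (−3.50) fell. Without the replicate block 6 passed as higher. Of 33 G protein subunits 13 rose and 7 fell (median 0.34). The gamma subunit gene Gng3 was at 2086, 2078 and 2023 CPM against 511, 729 and 792 CPM (1.63, SE 0.15, adjusted p = 1.22e-05), and Gng8 rose by 2.12 on the log2 scale. Gng12 (−1.82) and Gng11 (−8.05) fell. Of 17 calmodulin and CaM kinase genes 9 rose and 3 fell. Camk2n2, an inhibitor of CaM kinase II, stood at 375, 289 and 217 CPM against 91.9, 115 and 132 CPM (1.36, SE 0.21), and Camk4 fell by 0.69.

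Receptors of fast transmission did not rise as a group. Of 20 rows matched as ionotropic glutamate receptors, which include Grin1os and Grid2ip beside 18 subunits, 0 rose and 10 fell (median −0.61). Gria1, an AMPA receptor subunit, was at 172, 64.7 and 62.0 CPM in the IPs and 296, 131 and 153 CPM in the inputs (−1.03, SE 0.12, adjusted p = 6.42e-05), and Gria4 fell by 0.83. Gria3 (−1.46) was at 87.6, 38.6 and 48.8 CPM against 202, 129 and 132 CPM, and the kainate receptor subunit gene Grik1 fell by 1.66. The fractions overlapped for Gria1 and not for Gria3, and replicate 1 was highest in both fractions of each. Without the replicate block 5 rows fell, and Gria1 did not pass (adjusted p = 0.0933). Of 7 metabotropic receptors 3 rose and 2 fell. Grm2 stood at 128, 43.6 and 49.5 CPM against 14.7, 8.09 and 12.3 CPM (2.52, SE 0.25, adjusted p = 2.14e-05) and Grm4 rose by 1.57, both of them inhibitory receptors of nerve endings, while Grm3 (−2.50), also found in astrocytes, and Grm5 (−0.57) fell. Grm5 did not pass without the block (adjusted p = 0.283), without replicate 1 (0.058) or without replicate 2 (0.0539). Of 23 GABA and glycine receptor genes 6 rose and 3 fell, with Gabra5 (1.09) and Gabra4 (0.99) higher and Gabrg1 (−1.02) and Gabrg3 (−0.77) lower. Without the block 1 of these passed, as higher.

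Of 16 acetylcholine receptor genes 2 rose and 3 fell: the muscarinic receptor genes Chrm5 (1.88) and Chrm3 (0.98) rose and the nicotinic Chrnb3 (−2.35) fell. Neither muscarinic gene passed without the block (adjusted p = 0.0572 and 0.274). Of 29 receptors for serotonin, dopamine, noradrenaline and histamine 5 rose and 3 fell. The 2 alpha-1 adrenergic receptors went apart, Adra1b rising from 8.15, 4.83 and 10.028 CPM to 25.6, 13.9 and 17.9 CPM (1.34, SE 0.21) and Adra1a falling from 35.5, 23.1 and 20.7 CPM to 11.5, 8.19 and 10.7 CPM (−1.36, SE 0.21). Htr7, a serotonin receptor of circadian circuits, rose by 1.14. Of 64 peptide and hormone receptors 5 rose (7.81%) and 12 fell (18.75%), both below the shares of all genes tested (18.4% and 22.1%), with a median of −0.54. Prokr2, the receptor of prokineticins, was at 70.8, 27.5 and 43.7 CPM against 23.9, 8.13 and 9.77 CPM (1.83, SE 0.26, adjusted p = 0.000195). Ntsr2 (−5.19), a neurotensin receptor of astrocytes, and the opioid receptor gene Oprd1 (−1.58) fell. Without the block 1 peptide receptor passed as higher.

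Of 50 peptide and hormone precursors 13 rose and 9 fell, with a median of 0.00. Cck (chromosome 9, 121489824 to 121495694), the gene for cholecystokinin, was at 340, 131 and 287 CPM in the IPs and 40.5, 32.4 and 63.0 CPM in the inputs (2.42, SE 0.22, adjusted p = 1.05e-05). Gnrh1, which drives gonadotropin release, was at 25.2, 21.5 and 14.5 CPM against 4.19, 2.08 and 1.91 CPM (2.96, SE 0.34). Both were higher in every IP than in any input. Avp and Oxt, the vasopressin and oxytocin genes of magnocellular neurons, fell by 4.25 and 3.80 on the log2 scale. Avp stood at 65.8, 29.1 and 8.76 CPM in the inputs and 2.24, 2.88 and 0.356 CPM in the IPs, with replicate 3 lowest in both fractions. Of 13 genes that process peptides, Pcsk2 (1.08) and Pam (0.79) were among 4 that rose, and Cpd (−0.93) and Scg3 (−0.62) were the 2 that fell. All 4 lost their calls without the block (adjusted p = 0.0732 for Pcsk2, 0.328 for Pam, 0.16 for Cpd and 0.382 for Scg3). Replicate 1 was highest in both fractions for Pcsk2, with 385.55 CPM against 117.1 and 173.38 in the IPs.

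Of 102 homeobox genes 18 rose and 39 fell (median −0.80). Lhx1, a LIM factor of mammillary and suprachiasmatic neurons, was at 67.1, 59.3 and 32.9 CPM in the IPs and 13.998, 11.7 and 7.25 CPM in the inputs (2.26, SE 0.31), and Nkx2-1, a factor of the ventral hypothalamus, at 260, 206 and 114 CPM against 42.7, 43.6 and 30.5 CPM (2.25, SE 0.17). Replicate 3 was lowest in both genes, and neither had overlapping groups. Lhx6 (−4.76), a factor of GABAergic neurons, was at 56.8, 30.4 and 49.1 CPM in the inputs and 2.38, 0.551 and 2.87 CPM in the IPs, and Dbx2 fell by 4.66. Of 29 forkhead genes 4 rose and 9 fell. Besides Foxb1, its paralog Foxb2 (2.95) rose, while Foxj1 (−2.18), the factor of motile cilia, and Foxo1 (−1.38) fell. Of 42 basic helix-loop-helix factors 8 rose and 15 fell. Nhlh2, a factor of hypothalamic neurons, was at 50.2, 49.5 and 34.956 CPM against 9.37, 9.99 and 7.17 CPM (2.34, SE 0.22, adjusted p = 1.2e-05), Neurog2 rose by 2.06, and the glial factors Heyl (−5.56) and Olig1 (−4.71) fell. Of 17 Sox genes Sox4 (0.92) rose and 9 fell, led by Sox10 (−5.33) and Sox8 (−4.21). Sox4 did not pass without replicate 1 (0.75, adjusted p = 0.112) or without replicate 2 (0.92, adjusted p = 0.0897). Of 43 nuclear receptors 5 rose and 8 fell: Rxrb (1.02) and the thyroid hormone receptor gene Thra (0.93) rose, and Nr2e1 (−4.24) fell. Of 353 genes with Zfp symbols 27 rose (7.65%) and 46 fell (13.0%), both below the shares of all genes tested (18.4% and 22.1%). Zfp703 (1.55) was higher and the RNA-binding Zfp36l1 (−5.26) and Zfp36l2 (−3.48) were lower. Neurog2 did not pass without the block (adjusted p = 0.0577), without replicate 1 (1.63, adjusted p = 0.107) or without replicate 3 (1.77, adjusted p = 0.106).

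Of 49 histone genes 16 rose and 2 fell (median 1.16). The members that rose encode a median of 128 residues. Of all coding genes with up to 150 residues 49.8% rose (median 0.75), a larger share than in this list (32.7%). Hist1h4d was at 64.2, 92.6 and 82.9 CPM in the IPs and 9.62, 21.5 and 23.963 CPM in the inputs (2.21, SE 0.24, adjusted p = 3.37e-05). Hist2h4, another H4 gene, rose by 2.20. Hist1h2bc (−3.71) and Hist2h2be (−1.56) were the 2 that fell. Clustered histone genes have near-identical copies, so the split of reads among them is uncertain. Of 31 hnRNP and SR splicing factors 8 rose and 2 fell, with Srsf5 at 0.78.

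Of 24 pairs of related genes chosen with earlier results known, 8 had members that went in opposite directions, 6 had members that went the same way, 9 had 1 member past the threshold and 1 had none. The beta subunit genes of the sodium pump split, Atp1b1 rising (0.55) and Atp1b2 falling (−0.36), but neither passed without the block (adjusted p = 0.315 and 0.617), and Atp1b2 did not pass without replicate 2 (−0.19, adjusted p = 0.337). Fxyd7 (1.72) and Fxyd1 (−1.19), regulators of the pump, went apart, as did the SNARE genes Snap25 (0.89) and Snap23 (−2.83), the last from 12.5, 19.8 and 15.5 CPM in the inputs to 1.33, 3.16 and 2.49 CPM in the IPs. The fatty acid-binding protein gene Fabp3 rose (1.21) and Fabp7, of radial glia and astrocytes, fell (−4.93). The inward rectifier gene Kcnj3 rose (1.16) and the glial Kcnj10 fell (−4.70), from 248, 111 and 122 CPM to 11.7, 4.11 and 3.92 CPM. Gng3 and Gng11, and Aldoa (0.31, adjusted p = 0.0421) and Aldoc, were also among the 8, and the call of Aldoa was lost in 7 alternatives.

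In the remaining pairs, the globins Ngb (1.16) and Cygb (0.90) both rose, as did the calcium-binding Calb1 (1.502) and Calb2 (1.07). Both lactate transporters fell, Slc16a7 by 1.60 and Slc16a1 by 1.18, but Slc16a1 did not pass without the block (−0.82, adjusted p = 0.451). Eno2 (0.45), the neuronal enolase, rose, while Eno1 (−1.67, adjusted p = 0.0522) did not pass, and it did with 6 of the alternatives, DESeq2 (adjusted p = 0.0119) among them. The glucose transporter gene Slc2a1 of endothelium and glia fell (−0.92), and the neuronal Slc2a3 (−0.17, adjusted p = 0.289) did not pass. Slc2a1 did not pass without the block (adjusted p = 0.122) or without replicate 3 (adjusted p = 0.0635). The chloride transporter gene Slc12a2 fell (−2.17), from 82.3, 41.0 and 38.6 CPM to 21.5, 7.58 and 8.65 CPM, and its neuronal partner Slc12a5 (0.21, adjusted p = 0.161) did not pass. Gja1, the astrocytic connexin, fell (−5.56), and the neuronal Gjd2 (−0.66, adjusted p = 0.0882) did not pass. Rprm rose 3.45 while Rprml (0.62, adjusted p = 0.287) did not pass. Neither phosphofructokinase gene passed, Pfkp at −0.20 and Pfkm at 0.11, nor did Ldhb (−0.06).

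Of 85 potassium channel genes 17 rose and 18 fell. Kcng2 (1.92) and the auxiliary subunit gene Kcnab3 (1.57) rose, and the glial inward rectifiers Kcnj10 and Kcnj16 (−4.36) fell. Of 29 HCN, TRP and chloride channels Hcn4 (0.84) was among 3 that rose, and Trpm3 (−1.75) among 5 that fell. Hcn4 did not pass without the block (adjusted p = 0.137), without replicate 1 (0.0587) or without replicate 2 (0.165). Of 312 solute carriers 30 rose and 96 fell (median −0.42). After Slc17a6, the mitochondrial glycine carrier gene Slc25a38 (1.42) led the gains, and the glutamine carrier gene Slc38a3 (−5.57) and the urea carrier gene Slc14a1 (−5.38) led the losses. Without the block 16 solute carriers and 11 potassium channels passed as higher. Of 56 genes of glutathione and cytochrome P450 families 8 rose and 18 fell. Gpx3, a secreted glutathione peroxidase, was at 868, 353 and 268 CPM in the IPs and 184, 137 and 104 CPM in the inputs (1.65, SE 0.19, adjusted p = 4.9e-05), Mgst3 rose by 1.64 and Cyp2d22 fell by 5.41.

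Lists of matrix and immune genes differed in how many members fell. Of 39 collagens 0 rose and 14 fell (median −2.57), with Col23a1 at −3.80. 4 collagens fell without replicate 2. Of 35 laminins and integrins 1 rose and 17 fell (median −1.84), led by the microglial integrin gene Itgam (−5.59). Of 21 Toll-like, Fc and complement genes 0 rose and 17 fell (median −5.26), and their sum was 3.79 to 5.71 CPM in the IPs and 36.1 to 56.3 CPM in the inputs. Fcer1g (−5.29) was at 6.31, 4.01 and 5.09 CPM in the inputs and 0.685, 0.0367 and 0.0187 CPM in the IPs, and C1qb fell by 4.57. Of 9 S100 genes 5 fell, with S100a6 at −6.53, and of 14 claudins and aquaporins 6 fell, with Cldn10 at −6.14. Of 21 MHC genes 2 rose and 8 fell (median −0.09), and of 34 interferon-induced genes 2 and 10 (median −1.40). The antigen-presenting H2-K1 (−3.14) and B2m (−1.25) and the interferon-induced Ifitm3 (−6.39) fell as well.

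Of 28 semaphorins and plexins 3 rose and 10 fell, with Sema7a at 0.94 and the oligodendrocyte gene Plxnb3 at −4.60, and 2 fell without the block. Of 56 growth factor and receptor genes of the Fgf, Wnt and Bmp families 7 rose and 16 fell. Fgf13, an intracellular partner of sodium channels, was at 169, 181 and 213 CPM in the IPs and 81.7, 69.0 and 87.6 CPM in the inputs (1.24, SE 0.11), and Bmpr1b fell by 4.74. Of 10 neurexins, neuroligins and neurexophilins Nxph4 (2.82) and Nlgn2 (0.61) rose. Nlgn2 did not pass without the block (adjusted p = 0.162) or without replicate 1 (0.075). Nxph4 was at 141, 24.1 and 19.9 CPM against 12.1, 3.85 and 4.21 CPM, so that replicate 1 held most of the level in both fractions. Nrxn3 fell by 0.96. Of 31 cadherins and nonclustered protocadherins 2 rose and 9 fell, with Pcdh20 at 1.40 and the hair-cell cadherin gene Cdh23 at −2.70. Of 54 clustered protocadherins 1 rose and 2 fell, and 5 fell with DESeq2.

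Rows were also grouped by annotated type. Among coding genes 21.2% rose and 20.2% fell (median −0.02). Of 288 lincRNAs 5.21% rose and 19.8% fell (median −0.60), and of 288 antisense genes 3.82% and 23.3% (median −0.86), where 18.4% of all genes tested rose and 22.1% fell. Of 199 processed transcripts 6.53% rose and 17.6% fell, of 38 processed pseudogenes 5.26% and 10.5%, and of 28 transcribed processed pseudogenes 7.14% and 3.57%. Of 37 bidirectional promoter lncRNAs 2 rose and 2 fell (median 0.33). Of 29 rows annotated as snoRNAs 0 rose and 13 fell. In the list of 75 rows with snoRNA or microRNA symbols 29 fell, 10 or fewer without any 1 replicate and 50 with limma-voom, and 26 had no count in the IPs. Of 13 snoRNA host genes 3 rose and 4 fell, Snhg14 falling by 2.79 on the log2 scale and Snhg10 (0.92) and Snhg3 (0.82) rising, the last 2 not passing without the block (adjusted p = 0.147 and 0.11). Of 97 genes with opposite-strand names 13 rose and 23 fell. Lhx1os (2.61), which lies beside Lhx1, was at 83.2, 51.7 and 33.2 CPM in the IPs against 7.66, 12.1 and 6.69 CPM in the inputs, and Srrm4os (−6.04) and Dlx6os1 (−3.75) fell. Without a stated strand setting, reads of such genes and of their partners cannot be told apart. Of 1866 tested rows named only by a sequence accession 69 rose and 709 fell (median −1.91). 1 such row took 8.04%, 2.03% and 6.63% of the counts in input replicates 1 to 3 and 0.0448% to 0.182% in the IPs.

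The IP effect was then set against that of the midbrain, to find where the hypothalamus differed. The difference passed for 98 genes (0.541%): 62 had a higher effect in the hypothalamus (0.342%) and 36 a lower one (0.199%). Smyd1 (chromosome 6, 71213940 to 71322233), a methyltransferase known from muscle, was at 86.3, 106 and 59.7 CPM in the hypothalamus IPs and 17.997, 22.2 and 14.1 CPM in the inputs. Its midbrain levels were 4.44, 5.03 and 2.90 CPM in the IPs and 23.5, 28.3 and 20.033 CPM in the inputs. It thus rose by 2.20 on the log2 scale in one region and fell by 2.56 in the other (difference 4.75, SE 0.22, adjusted p = 2.07e-06). The transcription factor genes Foxb1 (3.32 against −1.14), Lhx1 (2.26 against −2.80), Lhx5 (1.60 against −3.53) and Sall3 (1.93 against −2.999) and the appetite peptide gene Cartpt (1.801 against −1.41) also went opposite ways. The midbrain levels of Foxb1, Lhx1, Lhx5 and Sall3 were low. They reached at most 3.97, 1.98, 0.557 and 0.999 CPM in the midbrain IPs and 8.19, 10.7, 5.10 and 7.19 CPM in the midbrain inputs. The adjusted p of the difference was 1.25e-05 for Foxb1, 0.000339 for Lhx1, 0.000209 for Lhx5, 4.51e-05 for Sall3 and 0.000125 for Cartpt. Meis2, a homeobox factor, fell in the hypothalamus (−4.07) and was at 0.45 (adjusted p = 0.167) in the midbrain, a difference of −4.51 (SE 0.37). For Gal, the galanin gene, the effect was −1.20 in the hypothalamus and 2.48 in the midbrain, and for Sst, the somatostatin gene, −1.36 and 1.61. The hypothalamic falls of Gal and Sst lost their calls in some alternatives. Rprm rose in both regions, by 3.45 and 1.61, and more in the hypothalamus (difference 1.84, SE 0.21, adjusted p = 0.0022). The effects of Slc17a6 (0.67, adjusted p = 0.0882), Snap25 (0.39, adjusted p = 0.286), Malat1 (−0.22, adjusted p = 0.943) and Ndufa1 (0.31, adjusted p = 0.799) did not pass as different. Without the replicate block 11 and 3 genes passed in this comparison, and without hypothalamus replicate 2 the counts were 21 and 8.

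Among the 359 genes in which replicate 1 stood apart in both fractions were Rtn1, the metalloproteinase inhibitor gene Timp2, the amyloid precursor-like gene Aplp1, the granin gene Scg2 and the chloride transporter gene Slc12a5. Timp2 was at 1402, 465 and 548 CPM in the IPs, and Aplp1 at 1316, 274 and 255 CPM. Of the 359 genes 153 passed in the paired test in either direction, against 40.5% of all genes tested. In Timp2 the 3 pairs had like differences (log2 0.92, 0.92 and 0.92) although levels did not agree: IP replicate 1 was 2.77 times the mean of the other IPs and input replicate 1 was 2.76 times that of the other inputs.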

How the data were processed

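RNA-seq was run on 12 libraries, and this text uses the 3 hypothalamus IPs and 3 inputs, with the midbrain libraries adding to the shared spread. The deposited values are raw read counts per gene symbol. The submitters' processing notes name STAR 2.0.0e, HTSeq and the build mm10. The annotation, strand and counting mode are not given in the sources used here. The 5 summary rows and a row named unknown (0 to 7 counts) were left out. In the 6 libraries the summary rows held 7.59% to 17.4% of reads without a feature, 1.45% to 16.2% ambiguous and 25.9% to 48.4% not unique. Groups and numbers came from the titles.

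Analysis of the counts used edgeR 4.0.16 in R 4.3.3: filterByExpr, TMM scaling, and a robust quasi-likelihood F test of 1 IP effect per region with the 6 region-and-number pairs as a block, adjusted by Benjamini-Hochberg over all genes tested at 0.05. CPM are TMM-scaled and not per length. The block was used because same-numbered IP and input share a lane and because their deviations from the group means correlated (0.32, 0.16 and 0.15). Mismatched ones gave −0.18 to 0.04. With the group means subtracted, the mismatched values are tied to the matched ones and add no separate support for the pairing. Replicates of 1 group differed beyond counting noise. The scripts were tested on simulated data. Named genes were Slc17a6 and Rpl10a, the 12 largest CPM gains and losses, the 8 smallest p in each direction, up to 2 members a direction of each list and all members of 24 pairs. Some of these genes are not reported here. Those chosen by size had to pass, to reach 5 CPM on average in the higher group and to have 1 sign in the 3 pairs, and rows with Gm, Rik or accession names were replaced. Genes of the regional comparison, and C1qa, Cldn5, Prl, Gh, Timp2, Aplp1, Scg2 and others given for a role, were chosen after their values were seen. The members, the lists and the pairs were chosen with earlier results of these data known. Coordinates, types and protein lengths came from GENCODE mouse release M21 by symbol, with 86.5% of tested rows matched, and promoters from RefSeq. Alternatives were another scaling, other filters, DESeq2 1.42.0, limma-voom (limma 3.58.1), no block, another block, only the hypothalamus libraries, and each pair left out. Floors at 3 counts are 0.0537 to 0.0631 CPM, for counting error only, since reads carry no molecular identifiers.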

Additional observations from a re-analysis of the deposited data

Results flagged for a closer look

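The following genes had IP effects in the hypothalamus that differed from those in the midbrain by the test of the difference itself (hypothalamus minus midbrain, log2, adjusted p under 0.05 by edgeR). Of these 27 genes, which include genes chosen for the text because of this difference, the positive ones among transcription factors and their neighbours were Nkx2-1 (6.28), Lhx1os (5.76), Lhx5 (5.12), Lhx1 (5.06), Sall3 (4.93), Foxb1 (4.47) and Zfp703 (1.86). Nkx2-1 held at most 1.68 CPM in any midbrain library, so its midbrain effect rests on few counts. Among peptide genes they were Gnrh1 (9.91), Npy (3.77), Cartpt (3.21), Hcrt (2.69) and Pmch (2.26). Gnrh1 had no count in the midbrain IPs, so its fitted value depends on the prior count and is not a bound, and Hcrt and Pmch had at most 1.66 and 4.99 CPM in any midbrain library. Hcrt fell in the hypothalamus (−0.96) and fell further in the midbrain (−3.65), and its hypothalamic fall did not pass without the block (adjusted p = 0.148). The hypothalamic rise of Npy did not pass without the block (adjusted p = 0.0653), without replicate 1 (0.306), without replicate 2 (0.11) or with library size only (0.0576). That of Pmch did not pass without the block (adjusted p = 0.552), with the number as a block over both regions (0.501) or without replicate 2 (0.0979). The others were Smyd1 (4.75), Bag3 (2.91), Ctxn3 (2.46), Pcdh20 (1.90), Dgkb (1.86), Cpne9 (1.86), Rprm (1.84) and Kcnab3 (1.69). The hypothalamic rise of Bag3 did not pass without replicate 1 (adjusted p = 0.0956) or without replicate 2 (0.0889).

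The difference was negative for Meis2 (−4.51), Gal (−3.68), Sst (−2.98), Grik1 (−1.75), Zfp36l1 (−1.62), Dlk1 (−1.34) and Egr1 (−1.12). Of these, Gal and Sst fell in the hypothalamus and rose in the midbrain, and Egr1, the immediate early gene, fell slightly in the hypothalamus (−0.31) and rose in the midbrain (0.81). The hypothalamic falls were not stable. Gal did not pass without the block (adjusted p = 0.0549) or without replicate 2 (0.0606), and Sst not with no filter (0.16) or without replicate 3 (0.153). Egr1 did not pass without the block (adjusted p = 0.252), or with replicate 1, 2 or 3 left out (0.0671, 0.118 and 0.0813). Zfp36l1 fell in both regions, by 5.26 and 3.63.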

How the results depend on the processing

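With 3334 higher and 4007 lower genes in the main comparison, the alternatives that kept all 3 pairs gave 2389 to 3655 higher and 3547 to 4914 lower. With 1 pair left out the higher genes ranged from 2253 to 2749 and the lower from 2584 to 3114, the lowest of both without replicate 2. For the regional difference, with 62 higher and 36 lower, no replicate block gave 11 and 3, the DESeq2 test 216 and 240, no filter on low counts 96 and 92, and leaving out a hypothalamus replicate 21 to 79 and 8 to 60. Rpl10a passed with the DESeq2 test (−0.73, adjusted p = 0.0391), with library size only (−0.86, adjusted p = 0.0359) and with the number as a block across regions (−0.69, adjusted p = 0.0476). Signs turned in 3 genes that did not pass: Ldhb without a replicate (−0.233 to 0.0644), Pfkm with library size only (−0.0559), and Tubb2b with DESeq2 size factors (−0.0159), the DESeq2 test (−0.015), library size only (−0.145) and without a replicate (−0.124 to 0.296). The cause was not tested. Of 242 called genes checked, 180 kept the call in every alternative, 45 lost it with no replicate block and 42 with 1 pair left out. Of 75 lists, 4 had a median whose sign differed between scalings: cytosolic ribosomal proteins, the CCT chaperonin, metabotropic glutamate receptors, and GABA and glycine receptors.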
